A study of Mus musculus with 6 samples.

Results

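The unfolded protein response and the genes induced by the transcription factor ATF4 were examined in 4T1 cells, a mouse mammary carcinoma line. The 45 members were taken by gene symbol from a table of 53465 genes, and all 45 were found. Of these, 44 passed the filter on low counts. Derl3, an ER membrane protein of the degradation pathway, did not, with 1 to 6 counts in each library.

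The resistant cells were derived in mice, from lesions present after surgery under continuous axitinib at 100 mg/kg/day. Axitinib inhibits the VEGF receptor kinases. Both groups carried the acquired resistance and had been cultured with 0.5 µM axitinib for over 2 months. They differed in staining with C12FDG, which fluoresces once β-galactosidase has cleaved it: the bright fraction is SM positive (3 libraries) and the dim fraction SM negative (3 libraries). No untreated or drug-sensitive cells were analysed here, so every difference below lies within one resistant, drug-exposed population. The labels state neither the age nor the strain of the mice, nor whether the cells are clonal.

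Proteins that misfold in the endoplasmic reticulum (ER) are sensed by 3 membrane proteins, the kinases IRE1 (Ern1) and PERK (Eif2ak3) and the transcription factor ATF6. IRE1 splices the Xbp1 transcript, and ATF6 and XBP1 raise ER chaperones and the genes of ER-associated degradation (ERAD), which exports misfolded proteins to the proteasome. PERK phosphorylates eIF2α, which slows translation in general but favours translation of Atf4. ATF4 then raises amino acid synthesis, transport and tRNA charging genes, and with prolonged stress Ddit3 (CHOP). Amino acid shortage and viral RNA reach ATF4 through other eIF2α kinases, without the ER.

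The DNA elements that carry these inputs are short, and they are shown here because several members hold a match to one of them near their start. RefSeq promoter windows (GRCm38.p6, 250 bases before to 50 after the start) were matched for 39 of the 45 members. Both strands were searched. The ER stress element ERSE (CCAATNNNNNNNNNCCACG), bound by ATF6 with NF-Y, was in the window of 7 of 12 ER chaperones and 2 of 5 ERAD genes, against 0.119% of all 32851 windows. ERSE-II (ATTGGNCCACG) was in those of Dnajb11 and Herpud1, against 0.0365% of all windows. The XBP1 and ATF6 core TGACGTG was in the Hspa5 window only, against 2.01%. The C/EBP-ATF element CARE (TGATGNAA), to which ATF4 binds with C/EBP partners, was in 2 of 9 windows of ATF4 amino acid targets (Asns and Pycr1), and in those of Chac1, Trib3, Nupr1, Herpud1 and Vldlr, against 3.97%. ERSE and ERSE-II share the CCACG end, and no match overlapped another. A match is a description of letters, not a bound site.

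The ERSE matches, followed by the ERSE-II matches of Herpud1 and Dnajb11, are given on the strand of the gene with the fixed letters in capitals. Those that begin with CGTGG lie on the opposite strand.
Hspa5: CCAATcggaggcctCCACG
Pdia6: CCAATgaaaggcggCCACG
Dnajc3: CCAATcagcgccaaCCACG
Canx: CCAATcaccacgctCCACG
Syvn1: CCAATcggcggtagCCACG
Hsp90b1: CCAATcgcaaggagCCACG
Hsp90b1: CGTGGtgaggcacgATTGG
Calr: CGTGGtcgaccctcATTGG
Creld2: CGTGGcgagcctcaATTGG
Derl3: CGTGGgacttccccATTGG
Herpud1: ATTGGgCCACG
Dnajb11: ATTGGcCCACG

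Among the amino acid genes that fell, Asns alone held a CARE match. The windows of Sars, Mthfd2, Psph and Shmt2 held no match, and Pycr1, which holds a CARE match, did not pass the test. The windows of Asns, which with Sars had the largest fall of the amino acid genes, of Pdia6 and Dnajc3, the chaperones that rose, and of Hspa5, the most abundant chaperone, are given with the matches in capitals.
Asns, chr6:7693160-7693459, minus strand: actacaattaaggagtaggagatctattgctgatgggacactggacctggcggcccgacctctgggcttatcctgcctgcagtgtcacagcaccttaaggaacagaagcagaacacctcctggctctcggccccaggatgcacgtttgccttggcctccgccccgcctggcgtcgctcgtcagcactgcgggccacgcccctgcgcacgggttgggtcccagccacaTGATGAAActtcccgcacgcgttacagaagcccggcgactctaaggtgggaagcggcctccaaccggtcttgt
Pdia6, chr12:17266339-17266638, plus strand: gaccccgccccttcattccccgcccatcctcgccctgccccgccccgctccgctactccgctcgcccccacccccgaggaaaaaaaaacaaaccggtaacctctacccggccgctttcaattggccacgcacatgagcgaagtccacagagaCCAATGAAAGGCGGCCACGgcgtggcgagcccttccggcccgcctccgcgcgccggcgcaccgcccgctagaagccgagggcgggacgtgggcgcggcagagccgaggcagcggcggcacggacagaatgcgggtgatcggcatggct
Dnajc3, chr14:118937682-118937981, plus strand: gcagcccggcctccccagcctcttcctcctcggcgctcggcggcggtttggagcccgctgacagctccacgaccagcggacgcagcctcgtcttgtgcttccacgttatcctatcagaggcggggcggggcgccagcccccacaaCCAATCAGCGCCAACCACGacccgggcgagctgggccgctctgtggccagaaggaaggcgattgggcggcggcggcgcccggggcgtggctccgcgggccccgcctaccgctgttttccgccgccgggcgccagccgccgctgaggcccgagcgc
Hspa5, chr2:34771840-34772139, plus strand: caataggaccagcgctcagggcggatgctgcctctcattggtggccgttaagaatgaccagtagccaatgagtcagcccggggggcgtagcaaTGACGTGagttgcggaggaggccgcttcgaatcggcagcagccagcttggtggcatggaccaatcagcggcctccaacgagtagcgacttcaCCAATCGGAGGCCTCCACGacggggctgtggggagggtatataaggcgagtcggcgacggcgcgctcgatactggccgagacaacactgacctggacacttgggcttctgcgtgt

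Across the 44 tested members, 12 differed between the fractions. In SM positive cells 4 rose and 8 fell, and each difference was between 8.52% and 19.7%. Of 10 amino acid and tRNA charging targets of ATF4, Asns, Sars, Mthfd2, Psph and Shmt2 fell, none rose and 5 did not pass. Of 8 feedback, death and C/EBP genes, Ddit3 and Ppp1r15a fell, Nupr1 rose and 5 did not pass. The ER chaperones Pdia6 and Dnajc3 and the ERAD adaptor Sel1l rose, whereas Derl1 fell. None of the 6 sensors and transcription factors passed the test. These calls are from edgeR's quasi-likelihood test with the replicate number as a block, an adjusted p under 0.05 over all genes, and fold changes as SM positive over SM negative. In bulk RNA, fewer cells with a transcript and less of it per cell cannot be told apart.

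The share called, 27.3% of the members, stands beside 14.1% of all 14038 genes tested. Expression is given as TMM-scaled CPM, a library's counts divided by its scaled total. Among genes with a mean of at least 10 CPM the share was 28.6% of 42 members against 18.0% of 9395 genes. By direction, 18.2% of members were lower against 5.60% of all genes, while 9.09% were higher against 8.52%, so the higher share was close to the background. These shares by direction are over genes of all levels. They were not taken among genes with a mean of at least 10 CPM, a level that 42 of the 44 members reached. Without the block, none of the 44 passed (190 of 14038 genes did, 1.35%). In that edgeR fit the lowest adjusted p of a member was 0.226. An unadjusted p under 0.05 was reached by 9 of the 44 members and by 1913 of the 14038 genes. The calls therefore rest on the pairing of libraries by number. The CPM of the fractions did not overlap for 6 members (13.6%), against 19.9% of all genes. The calls also depended on single pairs: 2 of the 12 remained without pair 1 (Ppp1r15a and Ddit3), 9 without pair 2 and 7 without pair 3. Calls over all genes fell too, from 1196 higher and 786 lower with all pairs. They were 506 and 199 without pair 1, 1029 and 764 without pair 2, and 637 and 249 without pair 3.

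**Figure D1:**
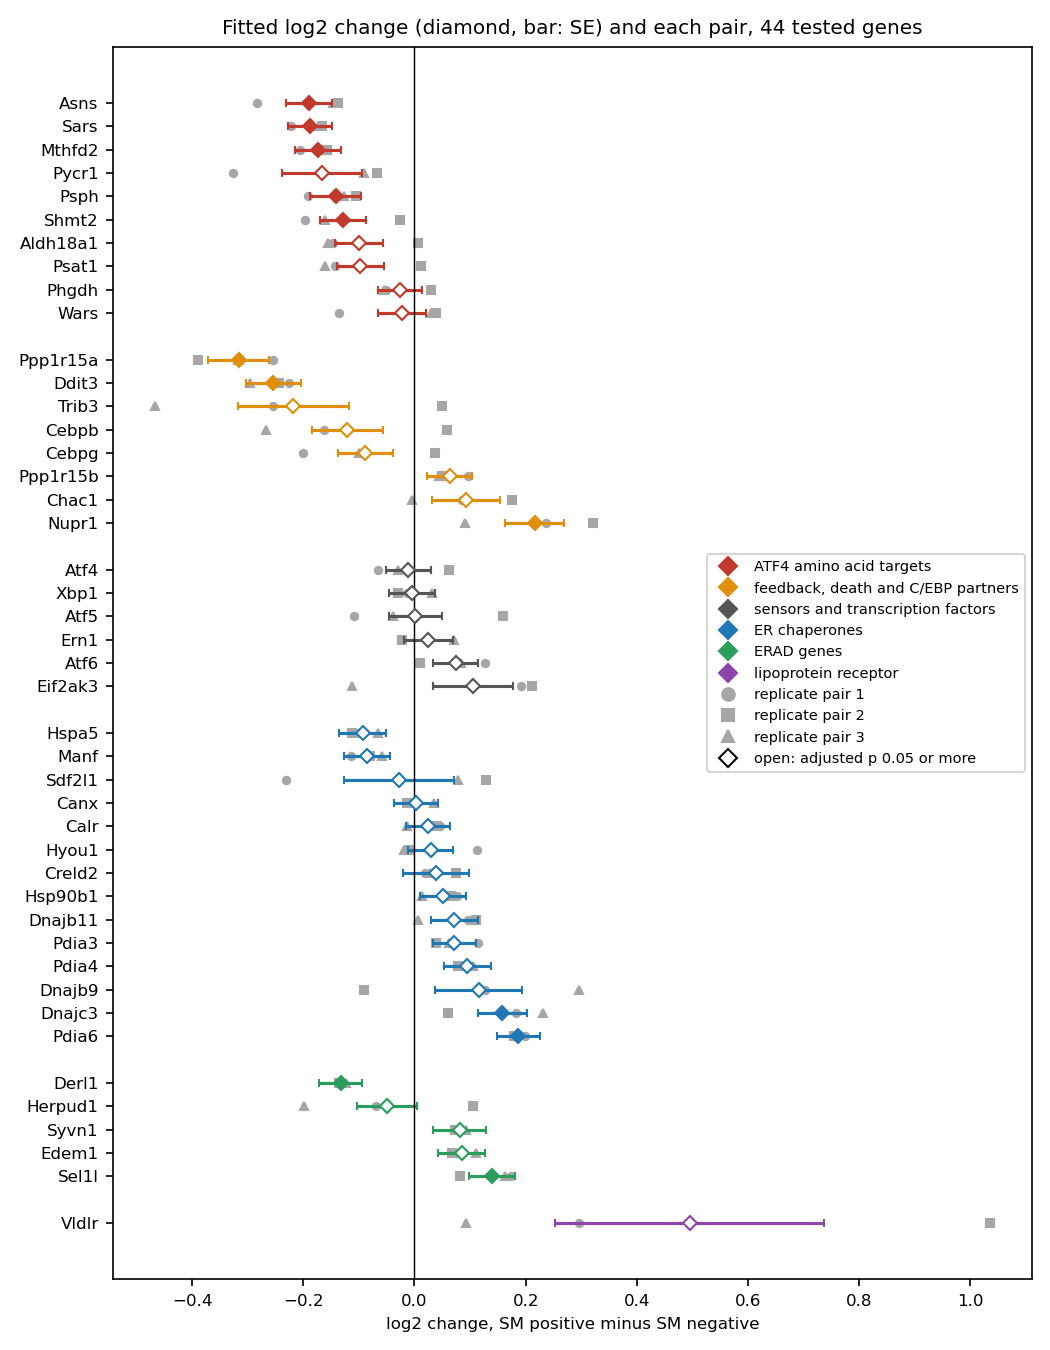
Log2 change (SM positive minus SM negative) of the 44 tested members, by group; diamonds with bars are fitted changes ± SE, filled where the adjusted p was under 0.05, and grey symbols are the 3 replicate pairs. All 10 ATF4 amino acid targets lie left of 0, and 11 of 14 ER chaperones lie right of it.

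Of the 10 ATF4 amino acid targets, 5 fell and none rose, beside 5.60% lower and 8.52% higher over all genes tested. Whereas 49.7% of all genes tested had a positive change, all 10 targets had a fitted change below 0. Their median log2 change was -0.14 (over all genes tested -0.001), and 6 of the 10 were lower in all 3 pairs, as were 22.7% of all genes. By pair, the median was -0.19, -0.05 and -0.15 for pairs 1, 2 and 3, so pair 2 showed the smallest shift.

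Asns (chromosome 6, 7675169 to 7693254, minus strand) encodes asparagine synthetase, which makes asparagine from aspartate. It stood at 292, 282 and 322 CPM in SM negative replicates 1, 2 and 3, and at 240.3, 256 and 291 CPM in SM positive replicates 1, 2 and 3. The positive library was the lower one in each pair, though the ranges of the fractions overlapped. Its log2 change was -0.19 ± 0.0412 (SE; adjusted p = 0.00372 with the block, 0.32 without).

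Sars (chromosome 3, 108424865 to 108445209, minus strand), the cytosolic seryl-tRNA synthetase, stood at 693, 663 and 797 CPM in SM negative and 594, 591 and 707 CPM in SM positive libraries. Each positive library was again below its partner, and replicate 3 was high in both fractions. The log2 change was -0.19 ± 0.0395 (SE; adjusted p = 0.00297, and 0.384 without the block). Wars, the tryptophanyl-tRNA synthetase, which interferon also induces, did not follow: its log2 differences were -0.14, 0.04 and 0.03 in pairs 1, 2 and 3 (adjusted p = 0.792).

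Of the serine and one-carbon enzymes among these targets, 3 fell and 2 did not pass, beside 5.60% lower over all genes tested. These enzymes were not a planned group, and the differences among them were not tested. Mthfd2, a mitochondrial folate dehydrogenase, stood at 159, 141 and 153 CPM in SM negative and 138, 126 and 138 CPM in SM positive libraries, without overlap (log2 change -0.17 ± 0.0406 SE, adjusted p = 0.00647, and 0.25 without the block). Shmt2, which passes the one-carbon unit of serine to folate in mitochondria, stood at 405, 383 and 414 against 354, 376 and 371 CPM. Its libraries did not overlap either, but pair 2 differed by only -0.03 on the log2 scale (log2 change -0.13 ± 0.0416 SE, adjusted p = 0.0437, and 0.32 without the block). Psph, the phosphatase that completes serine synthesis, stood at 55.6, 58.0 and 64.8 against 48.7, 53.8 and 59.4 CPM (log2 change -0.14 ± 0.046 SE, adjusted p = 0.0435, and 0.522 without the block). Exons of Shmt2 overlap those of Ndufa4l2 on the opposite strand, and exons of Psph those of Cct6a. Other genes share 3.55% of the 31-base stretches of the Shmt2 transcripts. The Psph and Shmt2 calls were the weakest of the group: both ended with DESeq2, limma-voom, no filter or no robust estimation. The earlier steps of serine synthesis did not pass with all 3 pairs. Psat1, the aminotransferase, had a log2 change of -0.10 ± 0.0423 SE (adjusted p = 0.135), at 574, 527 and 570.4 against 519.9, 531 and 510.1 CPM, and passed without pair 2 (adjusted p = 0.0147). Phgdh, the first enzyme, stood at 491, 453 and 508 against 474, 462 and 489 CPM (log2 change -0.03 ± 0.0394 SE, adjusted p = 0.732). Its fractions overlapped, and 55.9% of the 31-base stretches of its transcripts are shared with other genes, so its count is uncertain. The proline synthesis genes Aldh18a1 and Pycr1 had log2 changes of -0.10 and -0.17 (adjusted p = 0.133 and 0.135), and Aldh18a1 passed without pair 2 (adjusted p = 0.0404).

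**Figure D2:**
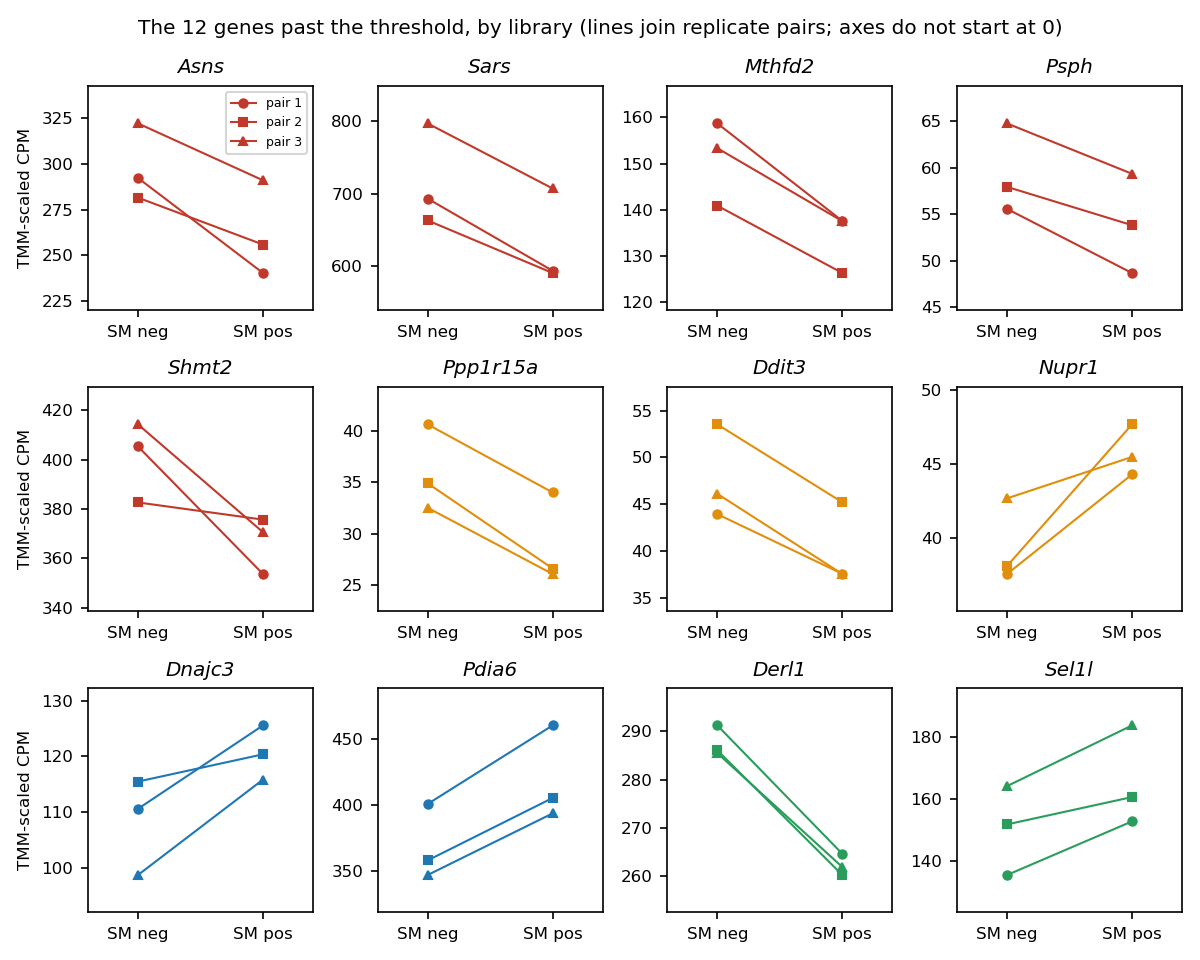
TMM-scaled CPM of the 12 members past the threshold in each library; lines join libraries with the same replicate number, and the axes do not start at 0. All 3 lines run in one direction for each gene, which selection by a test blocked on these pairs favours. The fractions overlap for all but Mthfd2, Shmt2, Nupr1, Dnajc3 and Derl1, and did not overlap for 19.9% of all genes tested.

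Among the feedback, death and C/EBP genes, 2 of 8 fell and 1 rose, beside 5.60% lower and 8.52% higher over all genes tested. Ppp1r15a (GADD34; chromosome 7, 45522916 to 45526268, minus strand) directs a phosphatase to eIF2α and so restores translation. It stood at 40.6, 34.9 and 32.5 CPM in SM negative and 34.0, 26.6 and 26.1 CPM in SM positive libraries. It was the largest fall of any member, 19.7% (log2 change -0.32 ± 0.0553 SE, adjusted p = 0.000551, and 0.273 without the block). It was also the only member that stayed under an adjusted p of 0.05 in all 10 other settings that kept the block, where its adjusted p reached 0.0375. Its exons overlap those of Tulp2 on the opposite strand. Its constitutive counterpart Ppp1r15b stood at 144, 148 and 138 against 154, 153 and 142 CPM, higher in all 3 pairs, with a log2 change of 0.06 ± 0.0404 SE (adjusted p = 0.337).

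Ddit3 (chromosome 10, 127290774 to 127296288, plus strand) encodes CHOP, a transcription factor linked to cell death under prolonged stress. It stood at 43.9, 53.5 and 46.1 CPM in SM negative and 37.6, 45.2 and 37.5 CPM in SM positive libraries. Replicate 2 was the highest in both fractions, and each positive library was below its partner (log2 change -0.25 ± 0.0495 SE, adjusted p = 0.00149, and 0.28 without the block). Another same-strand gene annotated as Ddit3 overlaps its exons, and other genes share 4.56% of its 31-base stretches, so its count is uncertain. Its exons also overlap those of Mars, the methionyl-tRNA synthetase gene, and Gm4189 on the opposite strand, and the sources used here do not say whether reads were assigned by strand. Mars itself had a log2 change of -0.06 ± 0.0424 SE (adjusted p = 0.36).

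Nupr1, a small stress-induced nuclear protein, moved the other way, from 37.6, 38.1 and 42.7 CPM in SM negative to 44.3, 47.7 and 45.5 CPM in SM positive libraries. The fractions did not overlap (log2 change 0.22 ± 0.0538 SE, adjusted p = 0.00998, and 0.226 without the block). Trib3, a pseudokinase that CHOP and ATF4 induce, stood at 54.9, 57.7 and 55.4 against 46.0, 59.7 and 40 CPM. It was lower in pairs 1 and 3 and slightly higher in pair 2 (log2 change -0.22 ± 0.0996 SE, adjusted p = 0.243), and it passed when pair 2 was left out and with no filter. Cebpb and Cebpg, whose products pair with ATF4, also had negative differences in pairs 1 and 3 and positive ones in pair 2 (adjusted p = 0.241 and 0.265). Chac1, which degrades glutathione, had a log2 change of 0.09 ± 0.0613 SE (adjusted p = 0.354).

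The sensors and factors at the head of the pathway had a median log2 change of 0.01, and 0 of 6 passed. In edgeR's blocked fit 0 of the 6 had an unadjusted p under 0.05, and none passed with DESeq2 or limma-voom. Atf4 stood at 415, 406 and 372 CPM in SM negative and 397, 424 and 365 CPM in SM positive libraries (log2 change -0.01 ± 0.0401 SE, adjusted p = 0.894). Xbp1 stood at 89.5, 83.8 and 91.1 against 88.6, 82.0 and 93.1 CPM (adjusted p = 0.966). The fractions overlapped almost fully for both. These are summed transcript levels, and neither the translation of Atf4 nor the splicing of Xbp1 can be read from them.

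Atf5, which is also controlled by translation, stood at 148, 136 and 167 against 137, 152 and 163 CPM (adjusted p = 0.987). Ern1 stood at 65.5, 72.3 and 74.9 against 66.6, 71.2 and 78.7 CPM (log2 change 0.02 ± 0.0437 SE, adjusted p = 0.773). For Atf6 the values were 154, 160.4 and 176 against 168, 161 and 186 CPM (log2 change 0.07 ± 0.0409 SE, adjusted p = 0.257). Atf6 was the 1 gene of the 6 that was higher in all 3 pairs. Eif2ak3 stood at 19.7, 22.2 and 20.8 against 22.5, 25.7 and 19.2 CPM, higher in pairs 1 and 2 and lower in pair 3 (adjusted p = 0.376).

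ER chaperones were spread around a small positive median. Of 14 genes, 2 rose and none fell, a share close to the 14.1% of all genes called in either direction. By direction, 8.52% of all genes were higher and 5.60% lower. Of the 14, 11 had a positive and 3 a negative change, beside 49.7% positive over all genes tested. The median log2 change was 0.05, and it was 0.09, 0.05 and 0.03 in pairs 1, 2 and 3. Pdia6 (chromosome 12, 17266545 to 17284770, plus strand), a protein disulphide isomerase, stood at 401, 358 and 347 CPM in SM negative and 460.1, 405 and 394 CPM in SM positive libraries. The gain was nearly equal in the 3 pairs, 0.20, 0.18 and 0.18 on the log2 scale (log2 change 0.19 ± 0.0383 SE, adjusted p = 0.00237, and 0.297 without the block). Its exons overlap those of Atp6v1c2 on the opposite strand.

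Dnajc3 (p58IPK), an ER co-chaperone that also restrains PERK, stood at 111, 115 and 98.7 against 126, 120.4 and 116 CPM. The positive libraries lay above all negative ones (log2 change 0.16 ± 0.0444 SE, adjusted p = 0.0207, and 0.341 without the block). Both Pdia6 and Dnajc3 carry an ERSE match in the windows above, as do Hspa5, Hsp90b1, Calr, Canx and Creld2, which did not pass.

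Hspa5 (BiP), the master chaperone and the usual readout of this response, stood at 2431, 2487 and 2588 CPM in SM negative and 2269.8, 2299.7 and 2472 CPM in SM positive libraries. It was lower in all 3 pairs by 0.10, 0.11 and 0.07 on the log2 scale, opposite in sign to most chaperones, and did not pass (log2 change -0.09 ± 0.0423 SE, adjusted p = 0.159). Manf, an ER-resident factor released under stress, had a similar log2 change of -0.09 ± 0.0413 SE (adjusted p = 0.189). Exons of Manf overlap those of Rbm15b on the same strand and of Dcaf1 on the opposite strand, so its count is uncertain. Hsp90b1 (GRP94) stood at 1616, 1568 and 1455 against 1704, 1639 and 1469 CPM (log2 change 0.05 ± 0.0414 SE, adjusted p = 0.462). Pdia4 and Pdia3, further disulphide isomerases, had log2 changes of 0.10 and 0.07 (adjusted p = 0.138 and 0.251). The lectin chaperones Canx and Calr had log2 changes of 0.003 and 0.02 (adjusted p = 0.97 and 0.753). The remaining chaperones, Dnajb9, Dnajb11, Hyou1, Creld2 and Sdf2l1, had log2 changes between -0.03 and 0.12.

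Of the 5 tested ERAD genes, 1 rose, 1 fell and 3 did not pass, beside 8.52% higher and 5.60% lower over all genes tested. Sel1l, the adaptor of the ubiquitin ligase HRD1, stood at 136, 152 and 164 CPM in SM negative and 153, 161 and 184 CPM in SM positive libraries (log2 change 0.14 ± 0.0408 SE, adjusted p = 0.026, and 0.534 without the block). Syvn1, which encodes HRD1 itself, had a log2 change of 0.08 ± 0.0484 SE with all 3 pairs positive (adjusted p = 0.302). Edem1, which delivers misfolded glycoproteins to the complex, stood at 76.3, 75.3 and 72.6 against 80.3, 79.0 and 78.4 CPM. The fractions did not overlap for Edem1, but its adjusted p was 0.206.

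Derl1, a channel component of the same machinery, stood at 291, 286 and 285 against 265, 260.3 and 262 CPM. The replicates of each fraction lay close together, and the fractions did not overlap (log2 change -0.13 ± 0.0384 SE, adjusted p = 0.0245, and 0.247 without the block). Other genes share 8.60% of its 31-base stretches. Herpud1, a stress-induced ERAD scaffold with both an ERSE-II and a CARE match, stood at 55.5, 55.0 and 44.9 against 52.9, 59.2 and 39.2 CPM. It was lower in pairs 1 and 3 and higher in pair 2 (log2 change -0.05 ± 0.0544 SE, adjusted p = 0.619). Vldlr, a lipoprotein receptor that PERK and ATF4 can induce, stood at 1.11, 1.23 and 1.75 against 1.39, 2.62 and 1.87 CPM, and the difference in pair 2 (1.04 on the log2 scale) was far above those in pairs 1 and 3 (0.30 and 0.09; adjusted p = 0.191).

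Set side by side, the 3 effector groups had median log2 changes of -0.14 for the ATF4 amino acid targets, 0.05 for the ER chaperones and 0.08 for the ERAD genes. In every pair the amino acid targets had a negative median and the chaperone and ERAD groups a positive one. The ERAD median was 0.08, 0.07 and 0.09 in pairs 1, 2 and 3, but it rests on 5 genes, and with no filter, which brings in Derl3, it was 0.03. The medians kept their sign with both other scalings, but these could hardly differ. TMM factors lay between 0.9911 and 1.006, so library totals were nearly the same scaling, and RLE factors gave medians of -0.136, 0.044 and 0.08. The difference between the groups was not tested.

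**Figure D3:**
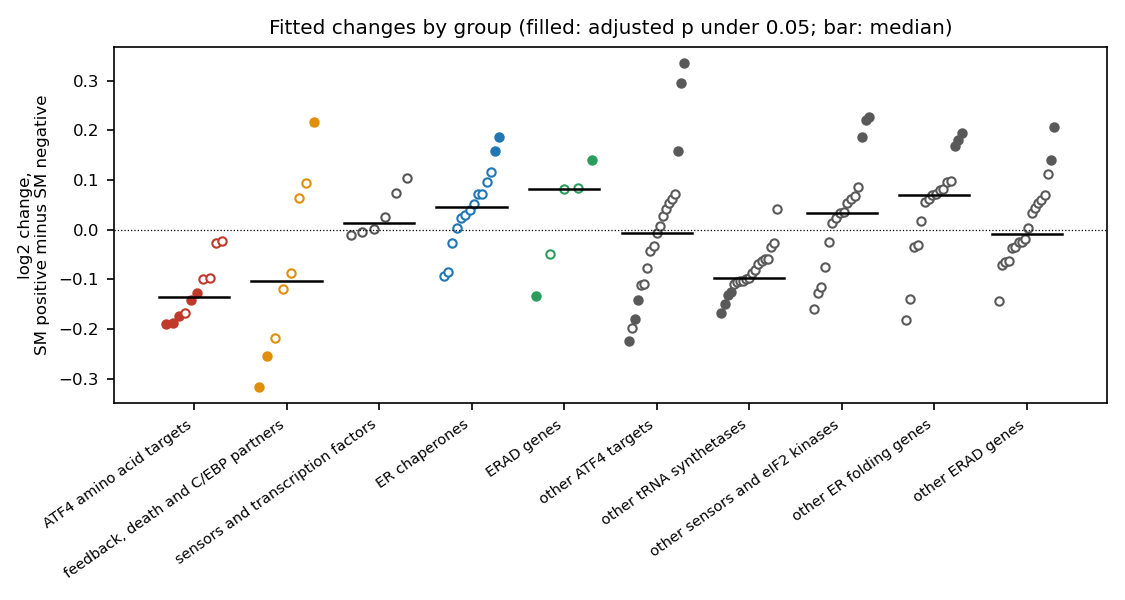
Fitted log2 change of each tested gene by group (filled, adjusted p under 0.05; black bar, median), for 5 member groups and 5 lists of other genes of the pathway. The amino acid targets and the other tRNA synthetases have medians of -0.14 and -0.10, and the chaperones, ERAD members and other ER folding genes have medians of 0.05, 0.08 and 0.07, whereas the other ATF4 targets and other ERAD genes have medians of -0.007 and -0.009.

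Other genes of the pathway, from 5 lists holding 91 genes of which 88 were tested, gave 11 higher and 7 lower, or 20.5% called, beside 14.1% of all genes and 18.0% of those with a mean of at least 10 CPM. The tRNA synthetases resembled Sars in direction: of 19, 4 fell and none rose, 18 had a negative change, and the median was -0.10. Over all genes tested, 5.60% were lower, 8.52% were higher and 49.7% had a positive change. Nars, the asparaginyl-tRNA synthetase, stood at 645, 637 and 689 CPM in SM negative and 561, 575 and 620.3 CPM in SM positive libraries (log2 change -0.17 ± 0.0393 SE, adjusted p = 0.0066, and 0.235 without the block). The fractions did not overlap for Nars. Lars and Cars, for leucine and cysteine, fell by 0.15 and 0.13 on the log2 scale (adjusted p = 0.012 and 0.0338). Kars, for lysine, named after its value was seen, fell by 0.13 (adjusted p = 0.0362).

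The other ATF4 targets were split, with 3 higher, 3 lower and 13 not past the test, beside 8.52% higher and 5.60% lower over all genes tested. Their median log2 change was -0.007, against -0.14 for the amino acid members. Eif4ebp1, an inhibitor of cap-dependent translation, stood at 177, 155 and 167 against 152, 137 and 139 CPM (log2 change -0.22 ± 0.0407 SE, adjusted p = 0.00077, and 0.166 without the block). The cytosolic serine hydroxymethyltransferase Shmt1 and the mitochondrial PEP carboxykinase Pck2 fell by 0.18 and 0.14 on the log2 scale (adjusted p = 0.0192 and 0.0347). Jdp2, a repressor of the AP-1 family, rose from 39.0, 30.4 and 31.5 to 48.6, 40.2 and 38.6 CPM (log2 change 0.33 ± 0.0524 SE, adjusted p = 0.000181, and 0.235 without the block). The secreted glycoprotein gene Stc2 and the mTORC1 inhibitor gene Ddit4 rose by 0.30 and 0.16 (adjusted p = 0.0061 and 0.0169). The fractions overlapped for Jdp2 and not for Eif4ebp1.

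In the remaining lists, calls were few and all higher, beside 8.52% of all genes higher and 14.1% called in either direction. Among genes with a mean of at least 10 CPM, 18.0% were called in either direction, which is close to 3 of 16. The share higher was not taken at that level. Of 16 other ER folding genes, 3 rose: Tmx1, Hspa13 and the disulphide oxidase gene Ero1a, by 0.18, 0.19 and 0.17 on the log2 scale (adjusted p = 0.0123, 0.0172 and 0.0201). The 18 other ERAD genes were evenly split, 9 positive and 9 negative, with a median log2 change of -0.009 against 0.08 for the 5 ERAD members. Of these 18, Edem3 and the lectin gene Os9 rose by 0.21 and 0.14 (adjusted p = 0.0105 and 0.0351) and none fell. Over all genes, 8.52% were higher and 14.1% were called in either direction. Of 16 tested other sensors and eIF2 kinase genes, Creb3l2, a relative of ATF6, the ER membrane protein gene Wfs1 and Eif2ak2 rose by 0.23, 0.22 and 0.19 (adjusted p = 0.00876, 0.0165 and 0.0173). Eif2ak2 encodes PKR, the interferon-induced kinase that phosphorylates eIF2α on double-stranded RNA. None of these 8 passed without the block, where the lowest adjusted p was 0.242.

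**Figure D4:**
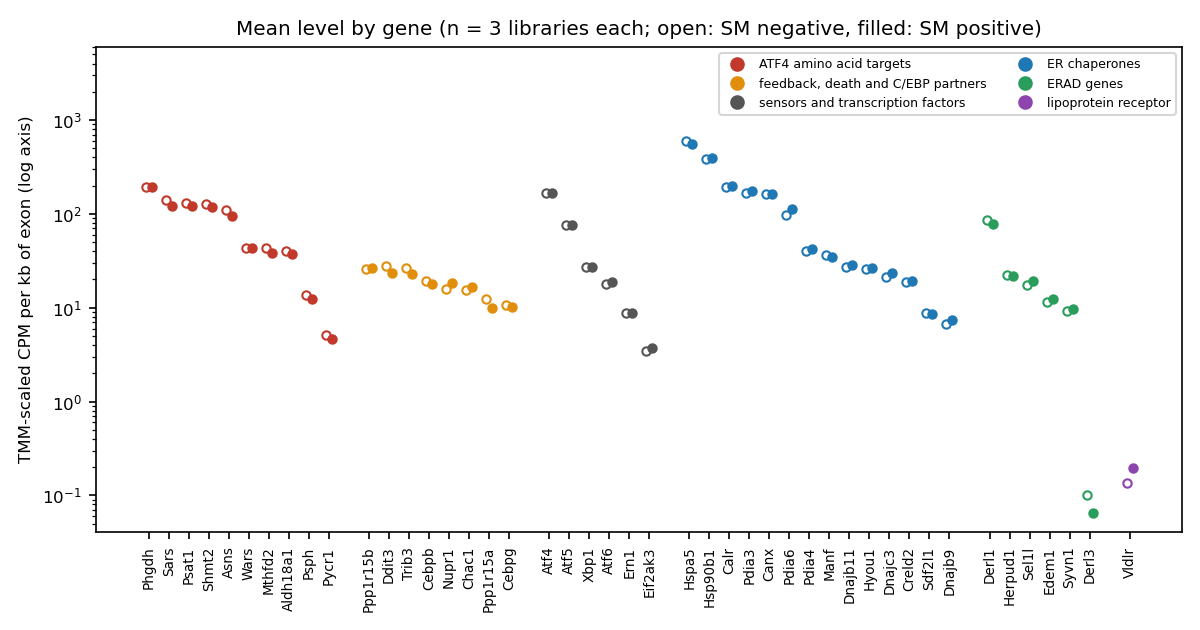
Mean level of each member in TMM-scaled CPM per kilobase of exon (log axis; open, SM negative; filled, SM positive; 3 libraries each). Hspa5 and Hsp90b1 lead at 592 and 383 in SM negative cells, and every member but Derl3 and Vldlr lies above 3.

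Compared per length of exon, levels ranged widely within each group and hardly between the fractions. In SM negative cells Hspa5 stood at 592 and Hsp90b1 at 383 CPM per kilobase, above every other member. Phgdh, Calr, Atf4, Pdia3 and Canx followed at 195, 195, 169, 166 and 164. Among the ERAD genes Derl1 led at 86.4, ahead of Herpud1 at 22.2. The sensors were low, with Atf6 at 17.7, Ern1 at 8.67 and Eif2ak3 at 3.47, and the feedback genes lay between 10.8 and 27.9.

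**Figure D5:**
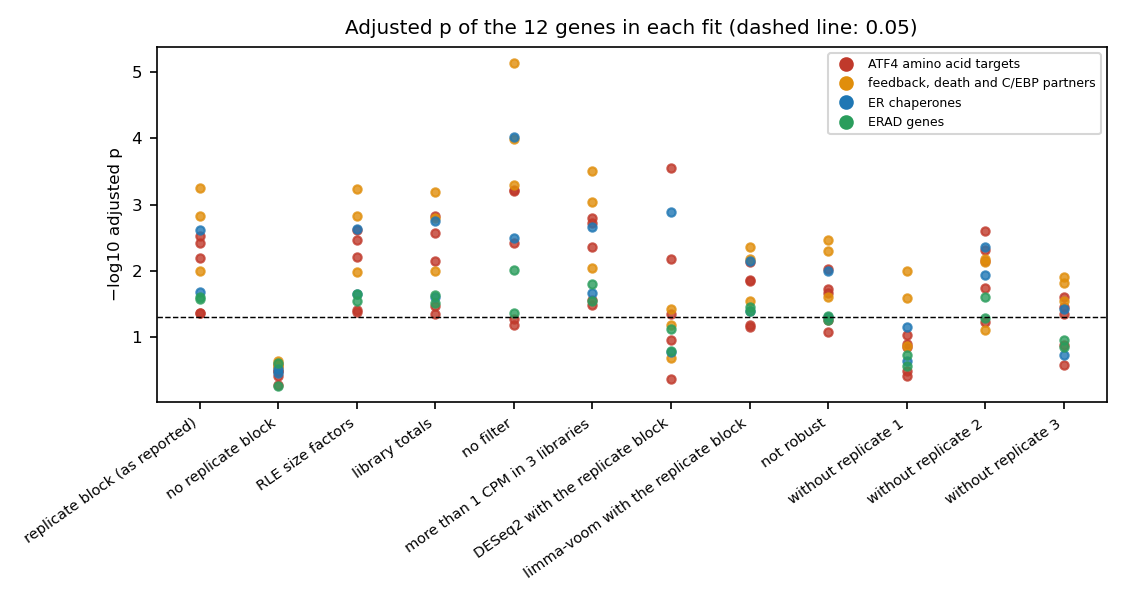
Adjusted p (as −log10) of the 12 called members in the fit with the replicate block and under each alternative; the dashed line marks 0.05. Without the block all 12 lie below the line, and without replicate 1 all but Ppp1r15a and Ddit3 do.

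Libraries held 18733801 to 26533528 counts. Markers of mammary epithelium were abundant (Krt8, Krt18, Epcam and Cdh1 at 151 to 1056 CPM in SM negative cells, Krt19 at 1.71), and Epcam and Krt19 were lower in SM positive cells (adjusted p = 0.0147 and 0.0263). The 5 leukocyte markers summed to 6.14 to 8.20 CPM in SM negative and 4.30 to 5.67 CPM in SM positive libraries. The 1 tested, Cd68, was lower in SM positive cells (adjusted p = 0.0148), and Adgre1 and Cd3e were at 0. The 5 fibroblast markers summed to 4.01 to 4.58 and 5.32 to 7.60 CPM, with Pdgfra higher (adjusted p = 0.0423), Col1a1 tested without passing and Lum at 0. The 5 endothelial markers summed to at most 0.427 CPM and none was tested. The part of these shifts in the results was not tested.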

How the data were processed

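Polyadenylated RNA was sequenced from 3 SM positive and 3 SM negative samples with a stranded mRNA kit, per the labels' protocols. The authors deposited expected counts per gene. FastQC 0.11.5, STAR 2.6.0a, RSEM 1.3.1 and GRCm38 are named in the submitters' processing notes, without role or order. Neither the annotation release nor the strand setting is given in the sources used here. Symbols and 1-based coordinates come from GENCODE M21 (GRCm38), which matched 99.8% of identifiers.

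Expected counts were rounded, filtered with filterByExpr (14038 genes), scaled by TMM and tested with edgeR 4.0.16 (R 4.3.3, quasi-likelihood, robust), with the replicate number as a block and Benjamini-Hochberg adjustment over all genes at 0.05. The procedure was tested on simulated data with planted changes larger than those of the called members, and with shifts shared by same-number libraries. That test therefore does not cover calls of this size or whether the numbers pair the libraries. Per-pair differences are of log2 CPM with a prior count of 2. The p-values measure only the spread between these samples, which may be technical, since nothing says that replicates were separate cultures. Alternatives were the fit without the block, RLE factors, library totals, 2 other filters, DESeq2 1.42.0, limma-voom (limma 3.58.1), no robust estimation, and leaving out each pair.

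The labels do not say what a number marks. Pairing by number was set by the planned comparison and then checked in the data. Deviations from fraction means correlated at 0.22, 0.28 and 0.196 for same-number libraries (others -0.175 to -0.0435), above the minimum of 0.1 set for the check. Because deviations are taken from each fraction's mean, the negative values for other numbers follow in part from the positive same-number values. No libraries were duplicates (chi-square per gene 6.32 to 18.1). Full values are given for members past the threshold, for the sensors and for the 2 members of each group with the highest level per length. Psat1, Trib3 and Edem1 are also given in full, outside these rules. From the other lists, up to 3 higher and 3 lower genes past the threshold with the smallest p are named. Members, lists and motifs were chosen with earlier results of these data known.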

Additional observations from a re-analysis of the deposited data

How the results depend on the processing

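Without the replicate block, the counts of members higher and lower were 0 and 0 (4 and 8 with it), and those of other pathway genes 0 and 0 (11 and 7 with it). With DESeq2 and the block they were 1 and 4 for members and 2 and 3 for the other genes. Leaving out 1 replicate number at a time gave 0 to 3 members higher and 2 to 9 lower, and 3 to 8 other genes higher and 1 to 7 lower. Over all genes tested, 1196 were higher and 786 lower with the block, 160 and 30 without it, and 423 and 193 with DESeq2. The counts were 506 and 199 without replicate 1, 1029 and 764 without replicate 2, and 637 and 249 without replicate 3. RLE factors, library totals and the stricter filter (3 libraries above 1 CPM) kept all 12 member calls. No filter ended 2 of them and added Trib3, limma-voom ended 2, leaving out pair 2 ended 3 and added Aldh18a1, Psat1 and Trib3, and no robust estimation ended 3. Median log2 changes moved by more than their spread between pairs only for the sensors without replicate 1 (0.033; 0.012 to 0.033 over the left-out pairs and 0.008 to 0.033 over all settings) and for the ERAD genes with no filter (0.026). No called member changed direction under any of these settings. The causes of these changes were not tested. In the blocked fit, leaving out 1 library leaves its partner without weight, so pairs were left out together. DESeq2 gave no adjusted p for 2722 genes, Vldlr among them. Members with 3 counts or fewer in a library (0.113 to 0.16 CPM) lie at the limit of detection, which concerns Derl3.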
